A study of Rattus norvegicus with 15 samples.

Results

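Bile ducts are lined by cholangiocytes, the epithelial cells that modify bile through channels and carriers on the side that faces the duct. In liver injury, small ducts and duct-like cells can multiply at the edge of the lobule, which is called a ductular reaction and is usually followed through keratins 7 and 19, the adhesion molecule EpCAM and the transcription factor SOX9. Keratins 8 and 18 are a type II and type I pair that hepatocytes and cholangiocytes both make. The 10 genes described here are markers of these cells: Krt7, Krt8, Krt18, Krt19, Epcam, Cldn4, Sox9, Spp1, Cftr and Anxa13. They were taken by symbol from a deposited expression table of 21576 genes. All 10 were in the table, and all 10 passed the filter on low counts.

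The libraries, 5 in each of 3 groups, were made from livers of male Sprague-Dawley rats. The feed of ZXD rats was 66% base forage, to which 16.7% sucrose, 8.3% yolk, 7% lard, 2% cholesterol, 0.3% sodium cholate and 0.2% propylthiouracil had been added. After 4 weeks on it they also received ZXD (Zexie Decoction), a herbal preparation, at a daily dose of 2.2 g/kg for a further 4 weeks. HFD rats ate the same feed and received saline in place of the decoction, and CON rats ate normal chow. Sodium cholate is a bile salt and propylthiouracil an inhibitor of thyroid hormone synthesis, and ZXD and HFD share both, so no effect of fat alone can be read from either group against CON. The labels name 10 rats per group, with no age, and do not tie libraries to rats. If some libraries of a group came from the same rat, the p-values would cover technical spread in part. If all did, they would cover technical spread only.

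Total counts per library were 12552449 to 14228052. Values are counts scaled to library size (CPM) after TMM correction, a scale that sets most genes level between libraries, and 3 counts came to 0.180 to 0.286 CPM per library. Changes were called at a Benjamini-Hochberg adjusted p under 0.05 over 13163 tested genes in edgeR's quasi-likelihood test. Albumin made up 3.64% ± 1.23 of the counts in ZXD, 4.33% ± 0.916 in HFD and 8.57% ± 0.628 in CON (SD, n = 5 each), so the tissue was liver by its main hepatocyte product. With library totals as the scale, the median of all genes moved to a log2 fold change of 0.45 in ZXD versus CON and 0.44 in HFD versus CON, against 0.022 and 0.013 with TMM, and changes against CON are therefore relative to the TMM scale. Libraries differed within groups. The summed level of 18 macrophage markers was highest in ZXD 4, at 6089 CPM, and in HFD it was highest in HFD 2 and HFD 5, at 3476 and 2630 CPM. The summed level of 16 hepatocyte markers was lowest of all in ZXD 4, at 55220.5 CPM. In bulk RNA, fewer cells of a type and less RNA per cell cannot be told apart.

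Promoters are shown for Epcam, Krt8 and Krt18 because these are the members whose levels were called higher in both diet groups against CON and had a sequence to print. Each line gives the 250 bases before the gene's start, 5′ to 3′ on the gene's own strand, from RefSeq on the build GRCr8, which held such a window for 5 of the 10 members. Capitals mark 3 motifs searched on both strands, the TATA box (TATAAA), the GC box (GGGCGG) and the AP-1 site (TGANTCA).
Epcam, chr6:12649679-12649928, minus strand: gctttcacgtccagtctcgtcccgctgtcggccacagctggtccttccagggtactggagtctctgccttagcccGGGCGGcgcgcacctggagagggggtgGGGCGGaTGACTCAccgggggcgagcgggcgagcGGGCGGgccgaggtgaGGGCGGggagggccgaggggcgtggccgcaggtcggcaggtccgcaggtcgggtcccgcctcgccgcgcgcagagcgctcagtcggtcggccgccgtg
Krt8, chr7:135010340-135010589, minus strand: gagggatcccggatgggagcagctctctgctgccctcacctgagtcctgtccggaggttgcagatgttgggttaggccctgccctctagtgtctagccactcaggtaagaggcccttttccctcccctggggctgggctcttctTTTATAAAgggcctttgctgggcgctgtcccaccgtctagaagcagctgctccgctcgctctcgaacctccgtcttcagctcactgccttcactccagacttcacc
Krt18, chr7:135035918-135036167, plus strand: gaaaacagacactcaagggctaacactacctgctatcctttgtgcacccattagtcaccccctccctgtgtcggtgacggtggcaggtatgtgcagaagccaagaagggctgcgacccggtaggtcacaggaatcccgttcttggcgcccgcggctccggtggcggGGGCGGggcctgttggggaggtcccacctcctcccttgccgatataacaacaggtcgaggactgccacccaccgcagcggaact

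The Epcam window held 4 GC boxes, starting 175, 148, 114 and 98 bases before the gene's start, and 1 AP-1 site at 141 bases. The Krt18 window held 1 GC box at 84 bases, and the Krt8 window 1 stretch that reads as a TATA box on both strands, at 106 and 104 bases. No match overlapped a match of another motif. Of 33469 promoter windows of the same length, 30.5% held a GC box, 12.9% a TATA box and 6.34% an AP-1 site. Between Krt8 and Krt18 the RefSeq gene table lists 1 gene, which is not protein-coding.

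Ordered by level per length (CPM per kilobase of gene), Krt8 and Krt18 led in every group. In ZXD, Krt8 stood at 246 ± 25.4, Krt18 at 195 ± 41.3 and Epcam at 24.4 ± 5.58 CPM per kilobase (SD, n = 5), followed by Spp1, Krt19, Sox9, Anxa13, Cldn4, Krt7 and Cftr. In HFD, Krt8 stood at 268 ± 66.7, Krt18 at 223 ± 54.3, Epcam at 36.3 ± 4.57 and Krt19 at 4.86 ± 2.32 CPM per kilobase, followed by Spp1, Anxa13, Sox9, Krt7, Cldn4 and Cftr. In CON, Krt18 stood at 131 ± 29.7, Krt8 at 129.5 ± 50.8, Epcam at 11.7 ± 2.02 and Krt19 at 1.51 ± 0.844 CPM per kilobase, followed by Anxa13, Spp1, Sox9, Krt7, Cftr and Cldn4. Gaps larger than the sum of both SDs separated Krt18 or Krt8 from Epcam in all 3 groups, and Epcam from Krt19 in HFD and CON. Every other pair of neighbours lay within that sum, Epcam and Spp1 in ZXD included. Krt7 and Krt19, the keratins of ducts, were thus far below the Krt8 and Krt18 pair in each group.

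Against CON, both diet groups held more RNA of Epcam and of the keratin pair. In HFD versus CON, 5 of 10 members were called higher, Epcam, Krt8, Krt18, Krt19 and Sox9, and 0 lower, where 9.88% of all tested genes were called higher and 10.8% lower. The median log2 fold change of the members was 1.66, beside 0.013 over all genes. In ZXD versus CON, 4 of 10 were called higher, Epcam, Krt8, Krt18 and Spp1, and 0 lower, where 17.7% of all genes were called higher and 14.7% lower. Their median was 0.75, beside 0.022 over all genes. These comparisons share the CON libraries. The members were chosen with earlier results of these data known, so the values over all genes beside them are no test of the list. Without a TMM factor the split of all genes moved to 6041 higher and 628 lower in ZXD versus CON, against 2327 and 1935 with it, and to 5385 higher and 505 lower in HFD versus CON, against 1300 and 1416. On that scale 6 members were called higher in ZXD versus CON, with Sox9 and Cldn4 added, and 7 in HFD versus CON, with Cldn4 and Cftr added. In ZXD versus HFD, edgeR called 0 of 10 members and 0% of all genes in either direction, and the members' median was -0.70, beside 0.019 over all genes. At an unadjusted p under 0.05, 4 members were lower in ZXD than in HFD, Epcam, Krt19, Cftr and Anxa13, and 0 were higher, where 6.48% of all genes were lower and 9.79% higher at that level. DESeq2 called 216 genes higher and 132 lower in ZXD versus HFD, Epcam among the lower ones, and limma voom called 0.

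**Figure D1:**
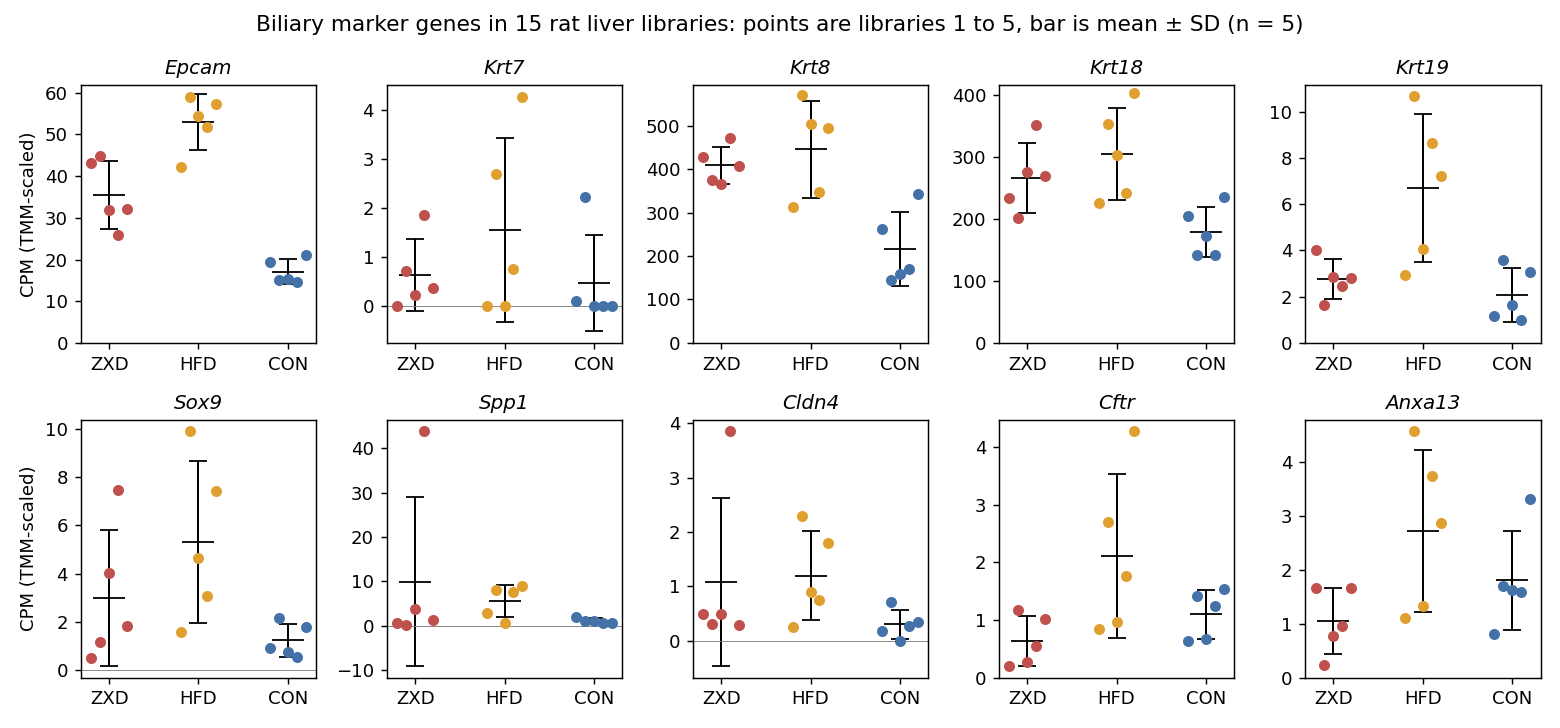
CPM (TMM-scaled, linear axis) of each of the 10 marker genes in every library of ZXD, HFD and CON, with the mean ± SD over 5 libraries. Epcam in all ZXD and HFD libraries lies above its CON libraries, while Spp1 and Cldn4 in ZXD are high in 1 library.

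**Figure D2:**
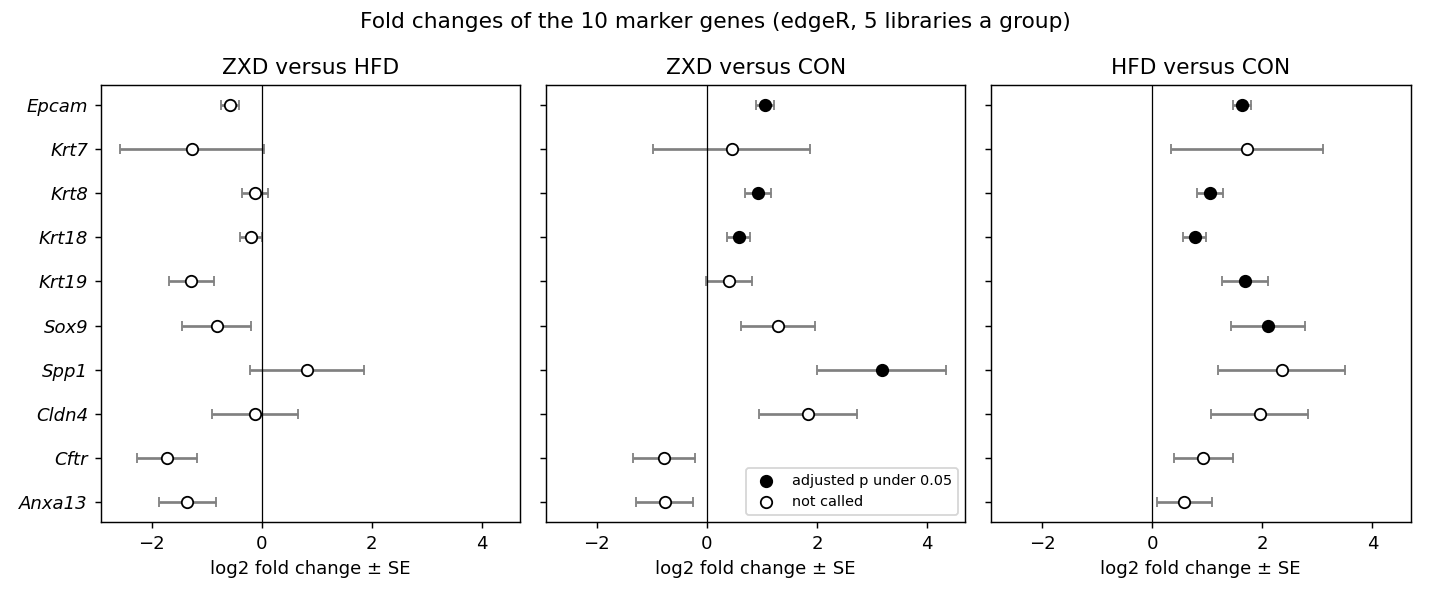
Log2 fold changes with standard errors in ZXD versus HFD, ZXD versus CON and HFD versus CON, with filled points for an edgeR adjusted p under 0.05. No point is filled in ZXD versus HFD, and 4 and 5 points are filled in the comparisons against CON.

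Epcam, a homophilic adhesion molecule of biliary and progenitor epithelium, had the smallest adjusted p of the members in both comparisons against CON. It stood at 43.2, 44.9, 31.9, 25.9 and 32.0 CPM in ZXD libraries 1 to 5, at 42.1, 59.1, 54.3, 51.8 and 57.3 CPM in HFD libraries 1 to 5, and at 19.5, 15.1, 15.2, 14.7 and 21.0 CPM in CON libraries 1 to 5. Every ZXD and every HFD library lay above every CON library, which held for 8.2% of all tested genes in ZXD versus CON and for 6.43% in HFD versus CON. The log2 fold change was 1.06 in ZXD versus CON (SE 0.16, edgeR adjusted p = 0.00061) and 1.63 in HFD versus CON (SE 0.17, edgeR adjusted p = 2.16e-05). ZXD and HFD overlapped by the range of HFD 1, ZXD 1 and ZXD 2, and the difference of -0.57 was not called by edgeR (SE 0.16, unadjusted p = 0.00273, adjusted p = 0.159). DESeq2 called it, at -0.59 (adjusted p = 0.0376). The Epcam calls against CON held in every refit without 1 library and without HFD 2, HFD 5 and ZXD 4 together.

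Krt8, the type II partner of the simple epithelial keratin pair, averaged 409 ± 42.4 CPM in ZXD, 446 ± 111 in HFD and 216 ± 84.7 in CON (SD, n = 5). Its libraries 1 to 5 held 427, 375, 367, 471 and 406 CPM in ZXD, 312, 572, 503, 346 and 495 CPM in HFD, and 263, 144, 159, 171 and 342 CPM in CON. All ZXD libraries lay above all CON libraries, while HFD 1 lay below CON 5. In log2 fold change, Krt8 was 0.92 higher in ZXD versus CON (SE 0.24, edgeR adjusted p = 0.0102) and 1.05 higher in HFD versus CON (SE 0.24, edgeR adjusted p = 0.008). Between ZXD and HFD the value was -0.12 (SE 0.24, edgeR adjusted p = 0.81).

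Krt18 is the type I partner. Its libraries 1 to 5 held 234, 201, 276, 352 and 269.9 CPM in ZXD, 226, 352, 303, 241 and 403 CPM in HFD, and 204, 142, 172, 142 and 235 CPM in CON. Both diet groups overlapped CON, through CON 5 and, for ZXD, CON 1. Its log2 fold change was 0.57 in ZXD versus CON (SE 0.20, edgeR adjusted p = 0.0416) and 0.77 in HFD versus CON (SE 0.20, edgeR adjusted p = 0.017). The ZXD call was lost without any 1 of CON 2, CON 3, CON 4, HFD 3, ZXD 3, ZXD 4 and ZXD 5, with an adjusted p of up to 0.11, without a filter on low counts (0.051) and without HFD 2, HFD 5 and ZXD 4 together (0.0723). Set against HFD, ZXD gave -0.20 (SE 0.20, edgeR adjusted p = 0.633). Reads that also match processed copies of keratin 8 or 18 may have been split or dropped in the authors' counting, so both levels carry that uncertainty.

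Krt19, a type I keratin of ducts, was called higher in HFD versus CON but not in ZXD versus CON. It stood at 4.01, 1.64, 2.85, 2.47 and 2.83 CPM in ZXD libraries 1 to 5, at 2.94, 10.7, 4.07, 8.66 and 7.22 CPM in HFD libraries 1 to 5, and at 1.17, 3.57, 1.62, 0.977 and 3.06 CPM in CON libraries 1 to 5. HFD 2, HFD 4 and HFD 5 were the highest of all libraries, and HFD 1 lay among the CON values. The log2 fold change was 1.68 in HFD versus CON (SE 0.42, edgeR adjusted p = 0.0127), and that call held in each refit without 1 library. In ZXD versus CON it was 0.41 (SE 0.42, edgeR adjusted p = 0.484). The difference between ZXD and HFD was -1.28 and was not called (SE 0.41, unadjusted p = 0.00674, edgeR adjusted p = 0.187).

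Krt7, a type II keratin of ducts, was near the limit of detection. Libraries 1 to 5 held 0, 9, 3, 31 and 5 counts in ZXD, 0, 39, 0, 11 and 64 in HFD, and 1, 25, 0, 0 and 0 in CON. Its counts were thus uneven inside every group, and no comparison was called (edgeR adjusted p = 0.839 in ZXD versus CON, 0.385 in HFD versus CON and 0.632 in ZXD versus HFD). Mesothelin, Msln, a marker of the mesothelium that covers the liver, held 3, 42, 24, 120 and 5 counts in ZXD, 6, 169, 2, 44 and 311 in HFD, and 15, 176, 4, 1 and 1 in CON. Its highest libraries were those highest in Krt7 in each group. Of 8 mesothelial markers 3 were tested and 0 called in any comparison, and Krt5 was at 0 in all libraries. Their summed level was 2.84 to 28.8 CPM in ZXD, 9.66 to 49.5 in HFD and up to 55.6 in CON, and their part in the Krt7 values was not tested. Msln was chosen after its values were seen.

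Sox9, the transcription factor that marks the biliary lineage, was called higher in HFD with a wide spread. It stood at 0.484, 1.17, 4.04, 7.46 and 1.81 CPM in ZXD libraries 1 to 5, at 1.57, 9.91, 4.66, 3.07 and 7.42 CPM in HFD libraries 1 to 5, and at 0.902, 2.14, 0.762, 0.533 and 1.79 CPM in CON libraries 1 to 5. HFD 1, ZXD 2 and ZXD 5 lay inside the CON range, and ZXD 1 lay below it. The log2 fold change was 2.11 in HFD versus CON (SE 0.68, edgeR adjusted p = 0.0397). Leaving out any 1 of CON 1, CON 3, CON 4, CON 5, HFD 2, HFD 3 and HFD 5 ended that call, with an adjusted p of up to 0.103, as did limma voom (adjusted p = 0.111) and leaving out HFD 2, HFD 5 and ZXD 4 together (edgeR adjusted p = 0.194). In ZXD versus CON the log2 fold change was 1.29 (SE 0.67, edgeR adjusted p = 0.154; 1.80 and 0.0474 without a TMM factor), and in ZXD versus HFD it was -0.82 (SE 0.63, edgeR adjusted p = 0.515).

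Spp1 encodes osteopontin, a secreted protein of cholangiocytes that macrophages also make. It stood at 0.692, 0.157, 3.69, 43.8 and 1.31 CPM in ZXD libraries 1 to 5, at 2.94, 8.11, 0.666, 7.64 and 8.89 CPM in HFD libraries 1 to 5, and at 2.08, 1.16, 1.05, 0.533 and 0.681 CPM in CON libraries 1 to 5. ZXD 4 held 729 of the 812 Spp1 counts of its group, and ZXD 1 and ZXD 5 lay among the CON values and ZXD 2 below them. Its log2 fold change of 3.18 in ZXD versus CON was called (SE 1.17, edgeR adjusted p = 0.0499), and it was 0.42 without ZXD 4 (edgeR adjusted p = 0.735). In HFD versus CON it was 2.35 and not called (SE 1.16, edgeR adjusted p = 0.152), but it was called without ZXD 4, at 2.35 (edgeR adjusted p = 0.0324). In ZXD versus HFD it was 0.82 (SE 1.03, edgeR adjusted p = 0.699) and turned to -1.94 without ZXD 4 (edgeR adjusted p = 0.311).

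Beside Spp1, the macrophage markers were high in the same library. Of 18 tested, 16 rose and 0 fell in ZXD versus CON, 10 rose and 0 fell in HFD versus CON, and 0 were called in ZXD versus HFD. The share of all tested genes called higher was 17.7% in ZXD versus CON and 9.88% in HFD versus CON. Cd74, Ptprc and Itgam rose by 3.85, 2.85 and 4.59 in ZXD versus CON, and Timd4, Cd74 and Lgals3 by 2.50, 3.36 and 3.77 in HFD versus CON (log2, edgeR adjusted p of 0.0105 or less). Their summed level was 793 to 6089 CPM in ZXD, 536 to 3476 in HFD and 294 to 734 in CON. In both diet groups Cd74 weighed most in that sum, with a mean of 1441 CPM in ZXD and 1029 in HFD, against 100 in CON. Cd163 and Clec4f, also in the list, were not called in HFD versus CON (log2 fold changes -0.69 and -0.079). Gpnmb, a glycoprotein of lipid-laden macrophages chosen after its values were seen, was at 1399 CPM in ZXD 4 and at 777 CPM or less in every other library. In HFD 4, however, Spp1 was at 7.64 CPM while the summed macrophage level was 536 CPM, the lowest of the diet libraries. The part of macrophages in the Spp1 values was not tested.

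**Figure D3:**
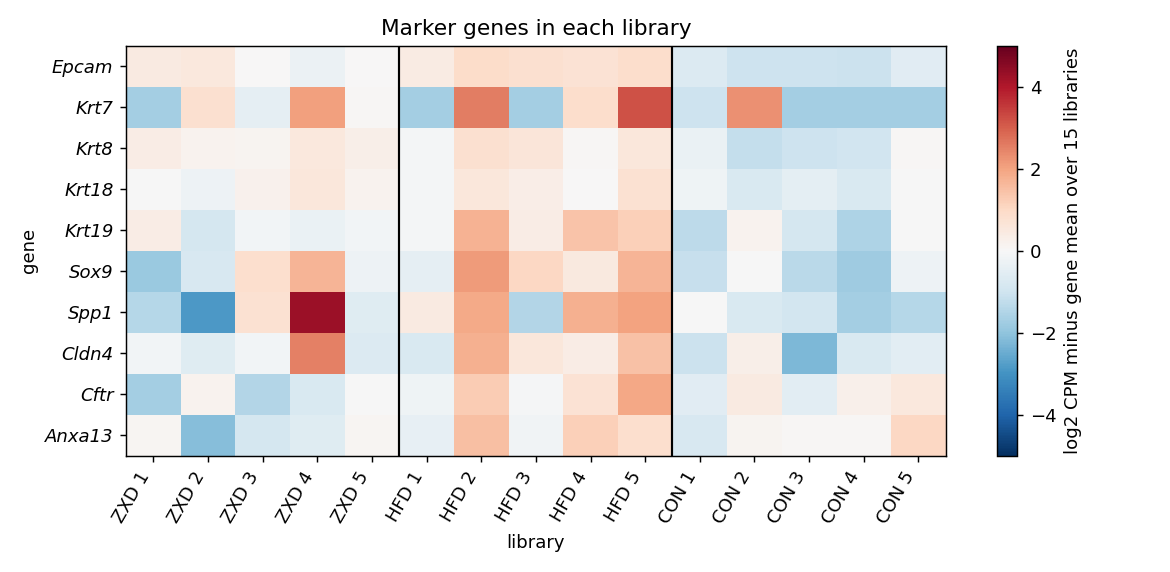
Log2 CPM of each marker gene minus its mean over 15 libraries, with libraries in columns (ZXD, HFD, CON) and genes in rows. HFD 2, HFD 4 and HFD 5 lie above the mean for all 10 genes, HFD 4 by little for Krt8 and Krt18, ZXD 4 is high in Krt7, Sox9, Spp1 and Cldn4, and HFD 1 is close to the mean for most genes.

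Cldn4, a tight junction protein of duct epithelium, was among the rarest members. Libraries 1 to 5 held 7, 4, 7, 64 and 4 counts in ZXD, 4, 33, 12, 11 and 27 in HFD, and 2, 8, 0, 3 and 4 in CON. In ZXD the value came from ZXD 4, and in HFD the highest libraries were HFD 2 and HFD 5. The log2 fold change was 1.83 in ZXD versus CON (SE 0.88, edgeR adjusted p = 0.124) and 1.95 in HFD versus CON (SE 0.89, edgeR adjusted p = 0.123). Both were called when no TMM factor was used, at 2.38 and 2.37 (edgeR adjusted p = 0.044 and 0.0495), and HFD versus CON was also called without ZXD 4 (edgeR adjusted p = 0.046). In ZXD versus HFD it was -0.12 (SE 0.78, edgeR adjusted p = 0.95), 0.0082 without a TMM factor and -1.58 without ZXD 4.

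Cftr, the chloride channel through which cholangiocytes secrete fluid, and Anxa13, an annexin of epithelial membranes, had their lowest group means in ZXD. Cftr libraries 1 to 5 held 3, 15, 4, 9 and 14 counts in ZXD, 13, 39, 13, 26 and 64 in HFD, and 7, 16, 7, 14 and 18 in CON. Anxa13 libraries 1 to 5 held 24, 3, 11, 16 and 23 counts in ZXD, 17, 66, 18, 55 and 43 in HFD, and 9, 19, 17, 18 and 39 in CON. All groups overlapped for both genes. In ZXD versus HFD the log2 fold change was -1.71 for Cftr (SE 0.54, unadjusted p = 0.0065, edgeR adjusted p = 0.187) and -1.35 for Anxa13 (SE 0.52, unadjusted p = 0.0189, edgeR adjusted p = 0.222). Against CON neither was called, at -0.78 and -0.77 in ZXD (edgeR adjusted p = 0.301 and 0.277) and at 0.93 and 0.59 in HFD (edgeR adjusted p = 0.214 and 0.417). Without a TMM factor Cftr was called higher in HFD versus CON, at 1.36 (edgeR adjusted p = 0.0497).

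Without HFD 2, HFD 5 and ZXD 4 together, a choice made after the values were seen, 1 member was called higher in HFD versus CON and 2 in ZXD versus CON. Epcam was the HFD call, while Krt8, Krt18 and Krt19 had log2 fold changes of 0.84, 0.52 and 1.32 with edgeR adjusted p-values of 0.0612, 0.0973 and 0.0955. Fewer samples entered that fit.

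Ratios between members within a library do not depend on the scaling between libraries. The 6 ratios of counts per length were compared in 3 comparisons, and of these 18 exact two-sided permutation tests 0 passed after Benjamini-Hochberg adjustment. The smallest possible p with 5 against 5 libraries was 0.00794. Among 18 tests a ratio at that p could not pass by itself, so this outcome does not show that the ratios were unchanged. Krt8 over Krt18 had a geometric mean of 1.279 in ZXD, 1.197 in HFD and 0.955 in CON. The log2 difference was 0.42 in ZXD versus CON (exact permutation p = 0.0317, adjusted p = 0.357) and 0.33 in HFD versus CON (exact permutation p = 0.0635, adjusted p = 0.381). Krt19 over Krt18 was 0.0102 in ZXD, 0.0202 in HFD and 0.0106 in CON. Its log2 difference was -0.99 in ZXD versus HFD (exact permutation p = 0.0397, adjusted p = 0.357), 0.93 in HFD versus CON (exact permutation p = 0.103, adjusted p = 0.464) and -0.059 in ZXD versus CON (exact permutation p = 0.913, adjusted p = 0.976). Epcam over Krt19 was 12.3 in ZXD, 8.19 in HFD and 8.54 in CON, and the Krt7 over Krt18, Sox9 over Krt19 and Spp1 over Krt19 ratios had adjusted p-values of 0.976 in every comparison.

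**Figure D4:**
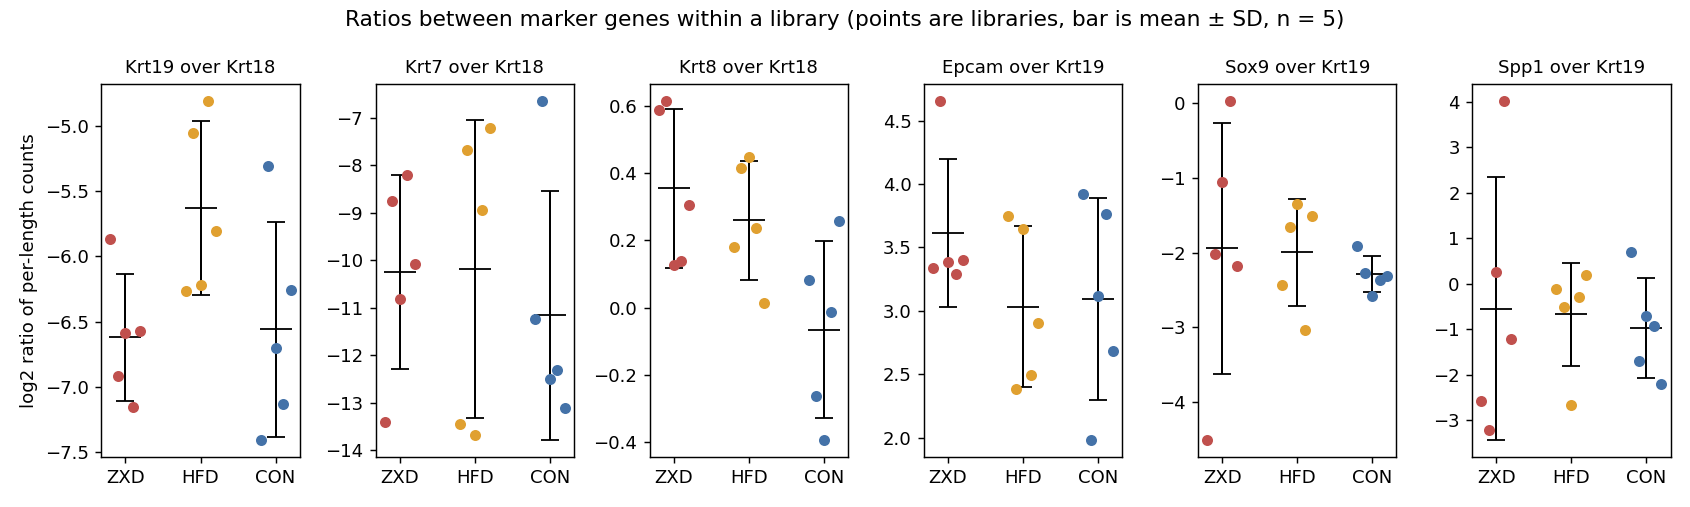
Log2 ratios of counts per length between pairs of marker genes in each library, with mean ± SD over 5 libraries. Krt8 over Krt18 lies near 0 on the log2 scale, and Krt19 over Krt18 is lower in the ZXD libraries than in HFD 2 and HFD 4.

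Within groups the members did not vary as 1 block. After each group's mean was subtracted, log2 CPM of Krt8 and Krt18 had a Pearson correlation of 0.81 over 15 libraries, Krt19 and Anxa13 one of 0.80, and Sox9 and Cldn4 one of 0.77. Krt7 and Cftr reached 0.71, and Epcam and Spp1 -0.50. The correlation with the summed macrophage markers was 0.61 for Sox9, 0.61 for Spp1 and 0.62 for Cldn4, 0.59 for Krt18, 0.069 for Krt19 and -0.33 for Epcam. Macrophage markers were not the list with the highest value for each of these: with the summed stellate cell and fibroblast markers it was 0.68 for Spp1, 0.69 for Cldn4 and 0.78 for Krt7. The value with mesothelial markers was 0.73 for Krt7 and 0.80 for Cftr, and with hepatocyte markers it was 0.65 for Epcam and -0.66 for Spp1. These points share libraries and scaling, the sums are weighted to the most abundant genes of each list, many members are near the counting limit, and no test was made of them. Among 12552 other genes with at least 1 CPM on average, the closest to Epcam were Reep6, Sbspon, Cage1, Stard4 and Btd, with correlations of 0.86 to 0.89. The closest to Krt19 were Igfbp6, Rpain, Ptpa, Boc and Crip2, from 0.82 to 0.89, and the closest to Sox9 were Commd9, Acss1, Traf2, Tctn1 and Tmbim1, from 0.91 to 0.93. Each set is the top of 12552 correlations over 15 libraries, where unrelated genes can also reach high values. No link between these genes was tested.

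Other genes of cholangiocytes were mostly not called, and those called in HFD versus CON were mostly higher. Of 22 listed outside the members, 20 were tested. In ZXD versus CON 3 rose and 3 fell with a median log2 fold change of 0.37, in HFD versus CON 7 rose and 1 fell with a median of 0.60, and in ZXD versus HFD 0 were called with a median of -0.32. Of all tested genes, 17.7% were called higher and 14.7% lower in ZXD versus CON, and 9.88% and 10.8% in HFD versus CON. Onecut1, a transcription factor of the hepatocyte and biliary lineages, fell to 4.70 ± 2.80 CPM in ZXD and 3.92 ± 3.46 in HFD, against 118 ± 35.6 in CON (SD, n = 5, edgeR adjusted p = 8.95e-05 and 7.29e-05). Ggt1, a gamma-glutamyl transferase, rose to 6.58 ± 1.97 CPM in ZXD and 9.35 ± 6.10 in HFD, against 1.12 ± 0.569 in CON (edgeR adjusted p = 0.00329 and 0.0014). Cldn7, a tight junction protein, was at 0.306 ± 0.240 CPM in ZXD, 1.32 ± 0.866 in HFD and 0.140 ± 0.132 in CON, and was called in HFD versus CON (log2 fold change 3.13, SE 0.78, edgeR adjusted p = 0.013). Its counts were 1 to 11 in ZXD, 4 to 35 in HFD and 0 to 3 in CON. Cldn7 thus passed the filter on low counts only through diet libraries, and the size of its change is uncertain. Wwc1, a Hippo pathway scaffold, fell by 0.48 (log2) in ZXD versus CON (SE 0.14, edgeR adjusted p = 0.0155). In CON, Onecut1 and Wwc1 averaged 118 and 66.3 CPM, against 2.08 CPM for Krt19. Which cells held the RNA of these genes was not tested.

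Genes of duct secretion and its control were mostly not called. Of 13 tested, 1 rose and 0 fell in ZXD versus CON, 2 rose and 1 fell in HFD versus CON, and 0 were called in ZXD versus HFD, with medians of 0.093, -0.065 and 0.087. Of all tested genes, 17.7% were called higher and 14.7% lower in ZXD versus CON, and 9.88% and 10.8% in HFD versus CON. Slc10a2, the apical carrier that takes bile salts back up from the duct, stood at 5.53, 3.21, 7.03, 8.18 and 2.39 CPM in ZXD libraries 1 to 5, at 16.2, 15.2, 10.4, 9.41 and 16.0 CPM in HFD libraries 1 to 5, and at 2.62, 3.57, 5.43, 4.09 and 3.23 CPM in CON libraries 1 to 5. HFD libraries lay above those of both other groups. Against CON this held for 6.43% of all tested genes, and the share against ZXD is not given here. In HFD versus CON it rose by 1.83 (log2) (SE 0.32, edgeR adjusted p = 0.00148), and ZXD versus HFD gave -1.35, which was not called (SE 0.31, edgeR adjusted p = 0.139). Itpr3, an apical calcium release channel of cholangiocytes, rose by 1.45 in ZXD versus CON (SE 0.33, edgeR adjusted p = 0.00565) and by 1.33 in HFD versus CON (SE 0.33, edgeR adjusted p = 0.0134). Vipr1, a receptor for vasoactive intestinal peptide, fell by 1.19 (log2) in HFD versus CON (SE 0.32, edgeR adjusted p = 0.0201).

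Signalling genes linked to the ductular reaction were mostly not called. Of 17 tested Notch, Hippo and TWEAK genes, 2 rose and 1 fell in ZXD versus CON, 2 rose and 2 fell in HFD versus CON, and 0 were called in ZXD versus HFD, with medians of 0.33, 0.24 and -0.23. Over all tested genes the shares called were 17.7% higher and 14.7% lower in ZXD versus CON, and 9.88% and 10.8% in HFD versus CON. Notch1 and Notch2, receptors in the pathway that drives duct fate, rose by 0.51 and 0.54 in ZXD versus CON (SE 0.16 each, edgeR adjusted p = 0.0242 and 0.0182). Tnfrsf12a, the receptor for TWEAK, rose in HFD versus CON by 1.58 (SE 0.52, edgeR adjusted p = 0.0443), while Tead1, a DNA-binding partner of YAP, fell by 0.92 (log2; SE 0.26, edgeR adjusted p = 0.0246). Afp, the fetal albumin-like protein that some progenitor cells make, fell to 4.15 ± 1.98 CPM in ZXD and 5.41 ± 1.24 in HFD, against 11.5 ± 1.81 in CON (SD, n = 5, edgeR adjusted p = 0.00226 and 0.0145).

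Among receptors of osteopontin, 3 of 9 tested rose in ZXD versus CON and 1 in HFD versus CON, 0 fell in either, and 0 were called in ZXD versus HFD, with medians of 0.33, -0.015 and 0.17. Of all tested genes, 17.7% were called higher in ZXD versus CON and 9.88% in HFD versus CON. Cd44, a receptor for osteopontin and hyaluronan that leukocytes also carry, rose to 60.5 ± 66.2 CPM in ZXD and 31.6 ± 23.9 in HFD, against 3.23 ± 1.64 in CON (SD, n = 5, edgeR adjusted p = 0.00393 and 0.017). Itga4, an integrin subunit of leukocytes, rose in ZXD versus CON by 3.08 (SE 0.51, edgeR adjusted p = 0.000998), and Itgb1, the common beta subunit, by 0.52 (SE 0.15, edgeR adjusted p = 0.0172).

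Markers of other cells gave the following counts. Of all tested genes, 17.7% were called higher and 14.7% lower in ZXD versus CON, and 9.88% and 10.8% in HFD versus CON. Of 16 hepatocyte markers, all tested, 0 rose and 7 fell in ZXD versus CON, 0 rose and 5 fell in HFD versus CON, and 0 were called in ZXD versus HFD. Asgr1, Alb and Cebpa fell by 0.98, 1.63 and 1.27 in ZXD versus CON, and Serpina1, Alb and Ttr by 0.92, 1.41 and 1.36 in HFD versus CON (log2, edgeR adjusted p of 0.00948 or less). Their summed level was 55220.5 to 128999 CPM in ZXD, 83594 to 112636 in HFD and 178175 to 214720 in CON. By this sum both diet groups lay below CON where Epcam lay above it. Alb weighed most in the sum, with a mean of 33794 CPM in ZXD, 39269 in HFD and 104478 in CON. Of the 16 markers, 9 were not called in ZXD versus CON and 11 in HFD versus CON. Of 12 tested stellate cell and fibroblast markers, 3 rose and 0 fell in ZXD versus CON, 0 rose and 1 fell in HFD versus CON, and 0 were called in ZXD versus HFD. Timp1, Pdgfra and Dcn rose by 2.19, 0.55 and 1.51 in ZXD versus CON (edgeR adjusted p of 0.0461 or less), and Lrat fell by 1.34 in HFD versus CON (edgeR adjusted p = 0.0236). Their summed level was 316 to 730 CPM in ZXD, 214 to 693 in HFD and 279 to 513 in CON, highest in ZXD 4 and, within HFD, in HFD 2 and HFD 5, which also held the highest Sox9 and Cldn4 of their groups. The part of these cells in the members' values was not tested.

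**Figure D5:**
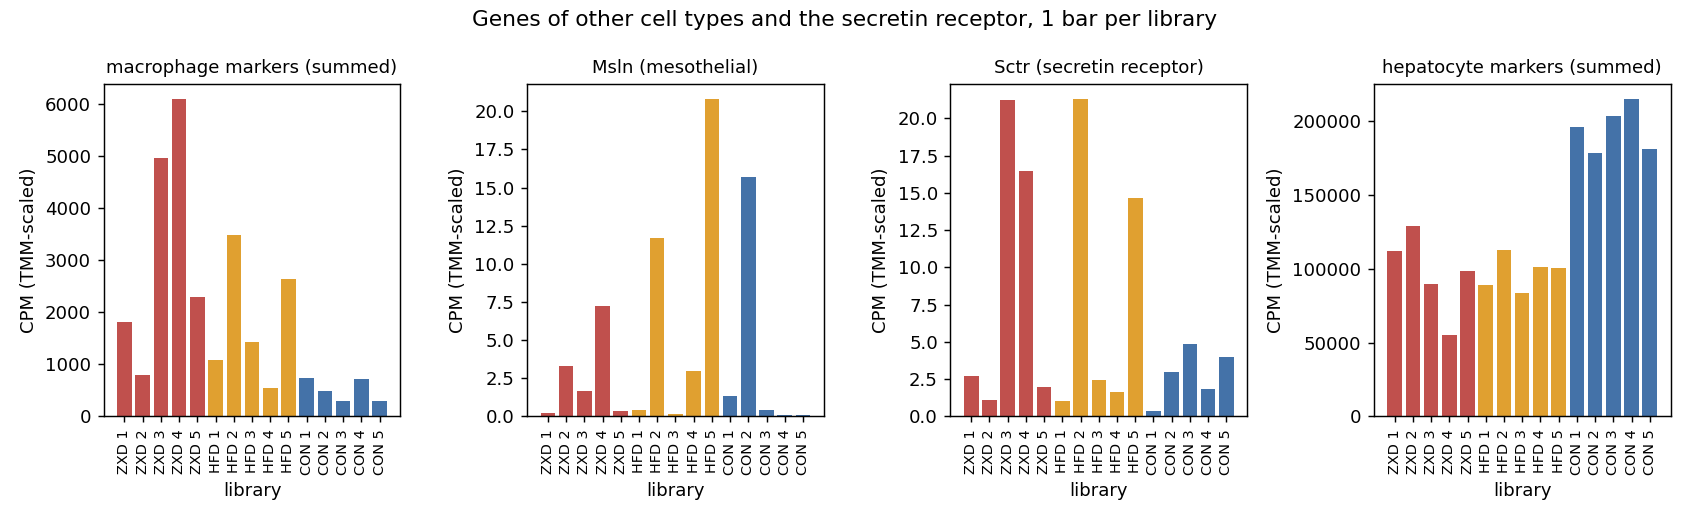
Summed CPM of 18 macrophage markers, CPM of Msln and Sctr, and summed CPM of 16 hepatocyte markers, 1 bar per library in ZXD, HFD and CON. The macrophage sum peaks at 6089 CPM in ZXD 4, Msln at 20.8 CPM in HFD 5, and the hepatocyte sum is lower in every ZXD and HFD library than in CON.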

How the data were processed

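The authors deposited 1 table with a read count and an FPKM value per gene and library, per the file headers. No source used here gives the aligner, read counter, strand use or genome build. EdgeR is the tool listed in the submitters' processing notes. The deposited FPKM equalled count over gene length and total count, within 0.01% for 100% of values above 0, and was not tested. Counts of 15 libraries were scaled with TMM, filtered with filterByExpr (minimum count 10, total 15; 13163 genes left) and fitted in 1 quasi-likelihood model by group (edgeR 4.0.16, R 4.3.3; DESeq2 1.42.0 and limma 3.58.1 as alternatives). SE is the log2 fold change over the square root of F. Ratios used counts plus 0.5. The fit was also run on simulated counts, but the outcome is not given here and lends the calls no support. No 2 of the 105 library pairs held the same values. Members and lists were chosen with earlier results of these data known. Named outside the members are up to 3 called genes per list and comparison with the smallest adjusted p, and the 5 genes closest to Epcam, Krt19 and Sox9. The level of 3 counts marks how low a value is and is not an estimate of error.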

Additional observations from a re-analysis of the deposited data

Results flagged for a closer look

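Of 30 groups of 5 libraries (10 genes in 3 groups), 2 held a library set far apart from the rest on the log2 CPM scale. That is near the rate of about 1 in 20 that chance gives. Cldn4 in ZXD 4 was the highest of its group, at a log2 CPM of 2.00, and its gap to the next library was 0.832 of the group's range. Krt7 in CON 2 was the highest of its group, at a log2 CPM of 1.25, with a gap of 0.829 of the range. The limit for 5 libraries is 0.71. For Krt7, 3 CON libraries were tied at 0 counts, so neither that limit nor the chance rate can be relied on there. CON 2 also held 147 counts of Lrrn4, a mesothelial marker chosen after its values were seen, against 6 or fewer in the other CON libraries.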

How the results depend on the processing

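The Epcam and Krt8 calls against CON held under every alternative run, except Krt8 in HFD versus CON without HFD 2, HFD 5 and ZXD 4 together, a choice made after seeing the data. With library totals as scale, 6041 genes were called higher and 628 lower in ZXD versus CON, and 5385 higher and 505 lower in HFD versus CON. Limma voom called 1540 genes higher in ZXD versus CON and 779 in HFD versus CON. In ZXD versus HFD, DESeq2 called 216 genes higher and 132 lower, and 1 member lower. Without HFD 2, HFD 5 and ZXD 4, HFD versus CON gave 560 genes higher and 811 lower, with 1 member higher, and ZXD versus CON 2 members. Without a low-count filter ZXD versus CON gave 2 members.

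The replicate numbers are not said to pair the samples, and correlations between libraries cannot settle whether they do. Of 15 same-numbered pairs, 4 correlated above 0.1 (range -0.55 to 0.26), and in 3 pairs the first-named group's library correlated best with its own number. In HFD versus CON, 3 of the 5 pairs were over 0.1 (replicates 1 to 3, at 0.244, 0.216 and 0.26) and all 3 of those fell there, while the other 2 pairs were at -0.00064 and -0.078. With a replicate block 778 genes were called higher in HFD versus CON, against 1300 without it, and 2 members in ZXD versus CON. Under the block Krt18 (edgeR adjusted p = 0.0598) and Spp1 (0.394) in ZXD versus CON and Sox9 (0.0674) in HFD versus CON were not called, and Spp1 in ZXD versus HFD was -0.49.

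Leaving out 1 library at a time gave 756 to 1611 genes higher and 939 to 1642 lower in HFD versus CON, lowest without HFD 2, 0 to 1 lower in ZXD versus HFD, and 2 to 4 members higher in ZXD versus CON. Log2 fold changes that turned sign in these refits were Spp1 (-1.94 to 1.12) and Cldn4 (-1.58 to 0.25) in ZXD versus HFD and Krt7 (-0.55 to 4.34) in ZXD versus CON. Log2 ratios that did were Krt19 over Krt18 (-0.27 to 0.25), Sox9 over Krt19 (-0.15 to 0.99) and Spp1 over Krt19 (-0.71 to 1.096) in ZXD versus CON, Epcam over Krt19 (-0.34 to 0.15) and Spp1 over Krt19 (-0.011 to 0.79) in HFD versus CON, and Krt7 over Krt18 (-0.93 to 0.72), Sox9 over Krt19 (-0.44 to 0.69) and Spp1 over Krt19 (-1.01 to 0.80) in ZXD versus HFD. None of these was called.

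Other reversals, none of them called, were in ZXD versus HFD Krt7 at 0.95 with a strict filter, 0.92 with only those groups fitted and 1.08 without the 3 libraries, Krt8 at 0.024 and Spp1 at -1.35 without them, Spp1 at -0.90 in voom and Cldn4 at 0.0082 on library totals. In HFD versus CON they were Krt7 at -0.064 without the 3 libraries and Epcam over Krt19 at 0.017 with 2 added counts. The causes were not tested. The Spp1 call in ZXD versus CON was lost in 11 of 15 refits without 1 library. Krt7, Cldn4, Cftr and Anxa13 had few counts, which limits their precision.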

Other observations

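Sctr, the receptor through which secretin opens Cftr, was not called in any comparison and split both diet groups. It had 39, 14, 305, 274 and 27 counts in ZXD libraries 1 to 5, 16, 307, 33, 24 and 219 counts in HFD libraries 1 to 5, and 4, 33, 51, 21 and 47 counts in CON libraries 1 to 5. ZXD 3, ZXD 4, HFD 2 and HFD 5 were the high ones, and in their groups these were also the highest in Sox9 and in the macrophage sum. Cd24, a surface marker of duct and progenitor cells, rose in HFD versus CON by 1.78 (SE 0.45, edgeR adjusted p = 0.0139), where HFD libraries 1 to 5 held 34, 205, 36, 91 and 131 counts against 12, 22, 25, 22 and 29 in CON libraries 1 to 5. HFD 2, HFD 4 and HFD 5 were the highest, as they were for Krt19. These genes were picked after their values were seen.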
